A study of Mus musculus with 18 samples.

Results

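Interferon-stimulated genes are the genes that cells switch on after an interferon has bound its receptor. They were described here in mouse kidney as 41 genes chosen by symbol from the 19545 rows of the expression table. Of these 41 genes, 39 had a row and 38 passed the filter on low values (1 FPKM or more in 3 or more libraries), which left 12385 genes to be tested. Mx1 and Mx2 were not analysed here, and Oas3, which lay between 0.03 and 0.60 FPKM, was measured but not tested. FPKM stands for fragments scaled to transcript length and to the mapped fragments of a library, so levels of different genes are compared per length.

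All 18 samples were kidneys of ICR mice aged 10 weeks, sequenced as total RNA, in 6 groups of 3. Control mice were untreated, and the AOS group received 10 mg/kg of AOS, an abbreviation the labels do not expand. HS stands for a high fat diet plus STZ, the usual abbreviation of streptozotocin, a toxin of pancreatic beta cells. The other 3 groups had the same diet and STZ and in addition AOS at 10 mg/kg (HS_AOS), an FMT labelled AOS 10 mg/kg (HS_AOS_FMT) or an FMT labelled control (HS_control_FMT). FMT usually stands for fecal microbiota transplantation, and its donors are not described in the labels, nor is the route of AOS. No transgene or deletion is named for any group. No label states that the 3 samples of a group are different animals, and p-values here measure only the spread between samples, part of which may be technical.

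Type I and type III interferons signal through JAK kinases to a transcription factor complex that holds STAT2 and IRF9 and binds a promoter element called ISRE, whereas interferon gamma acts mainly through an element called GAS. The induced proteins sense foreign RNA and DNA (Ddx58, Ifih1, Zbp1), block translation or degrade RNA (Eif2ak2, the Oas and Ifit families), tag proteins with ISG15, hold virus particles at the membrane (Bst2), or attack intracellular pathogens (guanylate-binding proteins). In kidney, tubule, endothelial and resident immune cells can all respond, and the same genes are known from lupus nephritis and viral infection of the organ.

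Promoter windows of 300 bases, from 250 before to 50 after the start site, were available from RefSeq (GRCm38.p6) for 31 of the 41 members, in 37 windows. The ISRE core was searched on both strands as GAAA, any 2 bases and GAAA again, and the GAS core as TTC, any 3 bases and GAA. An ISRE core was present in 17 of the 31 genes and in 48.6% of the 37 windows, against 3.44% of all 32851 windows of the table. A GAS core was present in 8 genes and in 21.6% of the windows, against 8.30% of all windows. Both cores occurred in 5 genes, and neither occurred in 11, among them Irf7 and Mov10. Only exact matches within the windows were counted, so a gene with neither may still hold a near match or an element elsewhere. The members without a window were Ifi27, Dhx58, Oas2, Mx1, Mx2, Usp18, Rtp4, Parp9, Parp14 and Zbp1.

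The windows printed here belong to 4 genes among those furthest above their group in control 3 and AOS 3 (Irf7, Isg15, Ifit3, Bst2), to 3 with their highest value in HS_control_FMT 2 (Tap1, Irf1, Gbp7), and to Mov10, the 1 gene that passed a test between groups. They were chosen after the values were seen, to show windows with and without the cores. Capitals mark ISRE and GAS cores, and each run is written 5′ to 3′ on the strand of the gene.
Irf7 (chr7:141266375-141266674, reverse strand): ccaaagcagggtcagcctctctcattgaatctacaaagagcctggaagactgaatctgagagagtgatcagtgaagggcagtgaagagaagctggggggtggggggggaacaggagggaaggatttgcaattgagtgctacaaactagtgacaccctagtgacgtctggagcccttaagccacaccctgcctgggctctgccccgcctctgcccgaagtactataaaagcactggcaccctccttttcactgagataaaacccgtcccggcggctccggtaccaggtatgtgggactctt
Isg15 (chr4:156200769-156201068, reverse strand): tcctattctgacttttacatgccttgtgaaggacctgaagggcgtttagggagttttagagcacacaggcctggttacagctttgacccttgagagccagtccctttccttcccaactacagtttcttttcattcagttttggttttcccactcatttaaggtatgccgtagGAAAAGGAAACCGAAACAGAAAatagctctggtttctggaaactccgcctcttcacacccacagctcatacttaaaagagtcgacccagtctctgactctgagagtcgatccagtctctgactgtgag
Ifit3 (chr19:34583279-34583578, forward strand): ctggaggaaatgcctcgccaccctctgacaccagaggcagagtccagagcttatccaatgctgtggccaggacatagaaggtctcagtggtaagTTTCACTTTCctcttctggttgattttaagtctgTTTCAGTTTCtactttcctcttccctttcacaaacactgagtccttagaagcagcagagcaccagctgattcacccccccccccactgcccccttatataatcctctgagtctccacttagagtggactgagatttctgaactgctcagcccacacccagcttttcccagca
Bst2 (chr8:71537423-71537722, reverse strand): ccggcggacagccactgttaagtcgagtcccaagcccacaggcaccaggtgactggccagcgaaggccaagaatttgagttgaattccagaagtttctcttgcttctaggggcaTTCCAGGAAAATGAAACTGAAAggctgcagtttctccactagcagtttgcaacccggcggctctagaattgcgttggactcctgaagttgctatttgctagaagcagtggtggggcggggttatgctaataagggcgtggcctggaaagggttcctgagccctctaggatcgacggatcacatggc
Tap1 (chr17:34187306-34187605, forward strand): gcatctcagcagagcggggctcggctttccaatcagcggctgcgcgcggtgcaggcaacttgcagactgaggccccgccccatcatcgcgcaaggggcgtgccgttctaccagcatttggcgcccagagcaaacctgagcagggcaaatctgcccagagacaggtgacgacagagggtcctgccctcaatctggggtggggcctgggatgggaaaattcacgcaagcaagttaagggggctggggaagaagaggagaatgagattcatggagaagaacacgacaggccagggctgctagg
Gbp7 (chr3:142530086-142530385, forward strand): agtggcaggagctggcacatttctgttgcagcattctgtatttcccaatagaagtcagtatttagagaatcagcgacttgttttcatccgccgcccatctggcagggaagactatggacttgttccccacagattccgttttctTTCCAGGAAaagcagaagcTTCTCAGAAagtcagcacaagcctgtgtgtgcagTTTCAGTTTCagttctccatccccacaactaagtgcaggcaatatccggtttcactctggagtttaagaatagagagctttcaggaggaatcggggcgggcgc
Irf1 (chr11:53769764-53770063, forward strand): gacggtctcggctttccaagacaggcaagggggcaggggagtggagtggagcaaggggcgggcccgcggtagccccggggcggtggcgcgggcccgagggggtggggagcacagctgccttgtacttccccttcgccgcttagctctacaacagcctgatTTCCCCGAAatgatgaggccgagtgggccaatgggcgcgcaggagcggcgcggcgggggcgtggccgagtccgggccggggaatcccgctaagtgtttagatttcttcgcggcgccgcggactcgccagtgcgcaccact
Mov10 (chr3:104818514-104818813, reverse strand): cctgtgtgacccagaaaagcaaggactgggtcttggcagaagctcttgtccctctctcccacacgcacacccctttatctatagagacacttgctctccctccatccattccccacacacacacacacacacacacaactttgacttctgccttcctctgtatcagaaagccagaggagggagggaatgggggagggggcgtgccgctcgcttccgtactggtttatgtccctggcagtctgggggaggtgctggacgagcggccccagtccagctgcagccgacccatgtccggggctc
The windows of Irf7 and Tap1 held neither core. In Isg15 3 overlapping ISRE cores ran from -78 to -57 relative to the start site. Ifit3 held 2 separate ISRE cores, from -156 to -147 and from -122 to -113. In Bst2 2 overlapping ISRE cores lay between -130 and -115, and a GAS core from -136 to -128 overlapped the first of them. Gbp7 held an ISRE core from -53 to -44 and 2 GAS cores, from -106 to -98 and from -87 to -79. The first of the 2 Irf1 windows held a GAS core from -90 to -82 and no ISRE core, and the second held neither. Neither of the 2 Mov10 windows held either core, and the one with the upstream start site is shown.

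The genes varied far more between the kidneys of 1 group than most genes did. On the log2(FPKM + 1) scale the median standard deviation within groups was 0.50 for the 38 members and 0.17 for all tested genes, whereas the median standard deviation of the 6 group means was 0.19 for the members and 0.14 for all genes. Irf7, the transcription factor that amplifies the type I response, had the widest spread (within-group SD 1.22), followed by Bst2 (1.01), Ifi27 (0.98), Ifit3 (0.98) and Isg15 (0.88). Mov10 had the narrowest (0.086), a value below that of all but 6.17% of tested genes. Many group means of these genes thus cover 1 kidney with a high level and 2 with low ones.

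The high kidney was the same one for nearly all members of a group. In AOS 3 the level was above that of AOS 1 and AOS 2 for 37 of 38 members, against 28.9% of all tested genes, and in control 3 it was the highest of its group for 37 of 38 members, against 68.6% of all genes. HS_control_FMT 2 was the highest of its group for 36 members (49.1% of all genes), HS_AOS_FMT 2 for 32 (49.3%), HS 3 for 31 (29.9%) and HS_AOS 3 for 30 (34.2%). HS_control_FMT 3 was the lowest of its group for 35 members, against 63.6% of all genes. HS_AOS 2 was the lowest for 32 (27.4% of all genes), AOS 2 for 29 (37.4%) and HS_AOS_FMT 1 for 23 (38.4%). In HS it was HS 2 for 21 (29.7%), and in control it was control 1 for 20 (43.5%). These shares describe single libraries and carry no test, since genes of 1 library are not independent of each other.

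The size of the shift differed between libraries. Relative to each gene's mean over the 18 libraries, the median member stood at 0.81 on the log2 scale in control 3, 0.62 in AOS 3, 0.56 in HS 3, 0.39 in HS_control_FMT 2 and 0.36 in HS_AOS 3. It stood at -0.56 in HS_control_FMT 3, where 0 of 38 members were above their own mean, against 24.9% of all tested genes. That share of all genes was the lowest of the 18 libraries. In control 1 and control 2, the other two untreated kidneys, it stood at -0.36 and -0.34. In HS_AOS_FMT the medians were -0.33, -0.00 and -0.22, so the highest of its 3 kidneys reached only the mean of the series. The median over all tested genes was 0.19 in control 3 and between -0.14 and 0.09 in the other libraries.

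**Figure D1:**
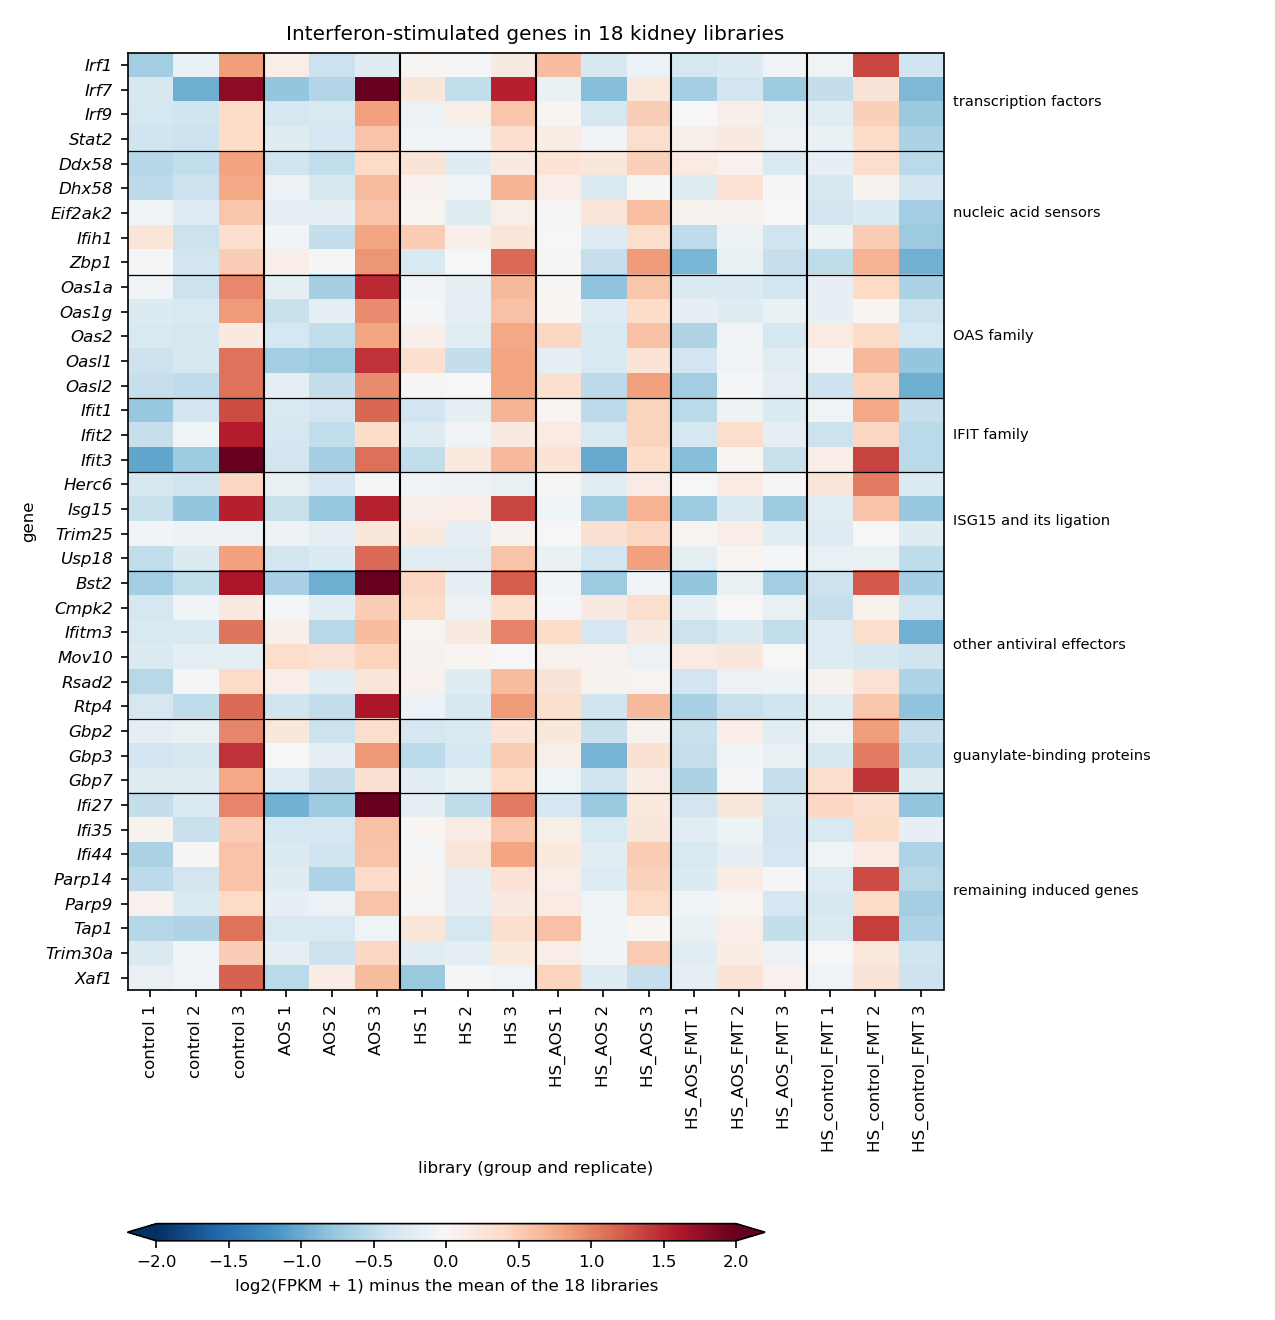
Heat map of 38 interferon-stimulated genes (rows, ordered by role) in 18 kidney libraries (columns, by group and replicate), coloured by log2(FPKM + 1) minus the gene's mean over the 18 libraries. Red columns mark control 3, AOS 3, HS 3, HS_AOS 3 and HS_control_FMT 2, and Mov10 is the row in which AOS stands apart as a group.

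**Figure D2:**
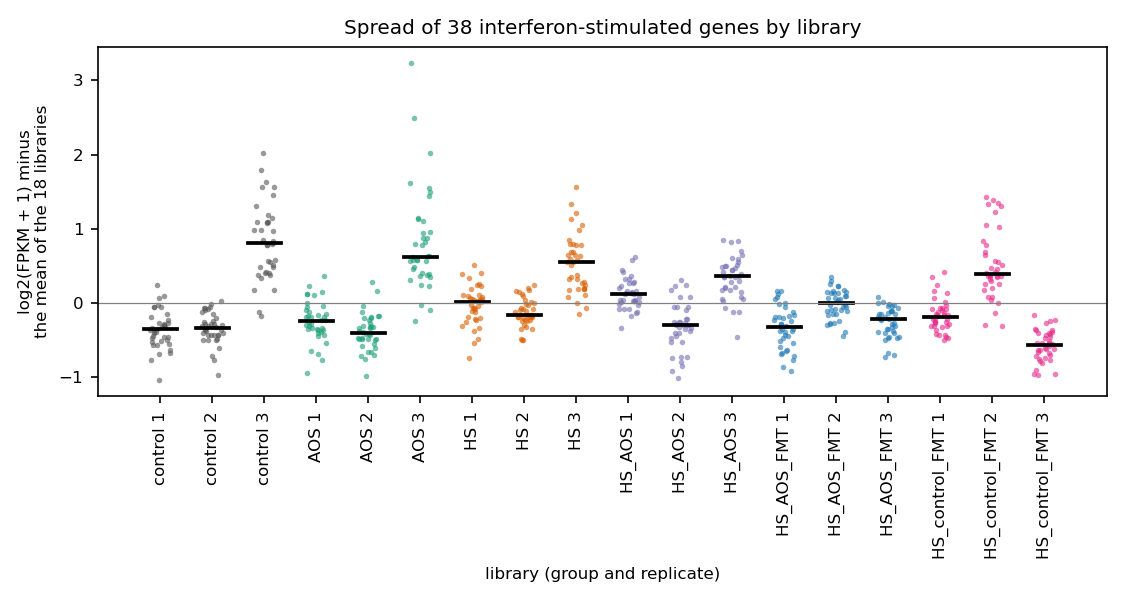
Each point is 1 of 38 genes in 1 library, on the y axis as log2(FPKM + 1) minus the gene's mean over the 18 libraries, with a black line at the library's median. The medians run from -0.56 in HS_control_FMT 3 to 0.81 in control 3, and in control, AOS, HS and HS_control_FMT 1 library stands well above the other two.

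Some of the high libraries also carried transcripts of neighbouring tissue or of immune cells, and the part of these in the result was not tested. The summed level of the 9 adrenal markers was 666 FPKM for control 3, 499 for HS 3, 327 for HS_AOS_FMT 2 and 56.8 for HS_AOS_FMT 3, and it lay between 1.64 and 7.62 in the other 14 libraries. Cyp11b1, an enzyme found in the adrenal cortex, was at 118 FPKM in control 3, at 0.06 in AOS 3 and listed at 0 in HS_AOS 3 and HS_control_FMT 2. Of the other high libraries AOS 3 was at 2.59, HS_AOS 3 at 3.70 and HS_control_FMT 2 at 1.64. The kidney list of 12 markers summed to 20321 FPKM in control 3 and to at least 70606 elsewhere, mostly through Kap, an abundant androgen-regulated tubule transcript. Relative to each gene's mean over all libraries, the median of these 12 markers was highest in control 3, at 0.58 (log2). It lay between -0.20 and 0.19 in the others. The 5 markers of perirenal fat summed to 556 FPKM in HS 3, against 72.55 and 4.67 in HS 1 and HS 2, and to 278 in AOS 3, against 19.9 and 22.1 in AOS 1 and AOS 2. They summed to 380 FPKM in HS_control_FMT 1, 218 in control 1 and 205 in HS_AOS_FMT 2, and to 26.1, 14.9 and 71.7 in the high libraries control 3, HS_AOS 3 and HS_control_FMT 2.

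The 15 macrophage and monocyte markers summed to 289 FPKM in control 3, against 183 and 151 in control 1 and 2, and to 210 in HS_control_FMT 2, against 111 and 84.2 in its group. In AOS 3 they summed to 162, against 163 in AOS 1 and 107 in AOS 2, and in HS_AOS 3 to 113, against 200 and 119. In HS they summed to 218, 103 and 179. The 13 markers of T and NK cells summed to 14.45 FPKM in HS_control_FMT 2, against 7.59 and 4.32 in its group, and the 8 neutrophil markers to 15.2, against 9.88 and 6.20. In the other libraries the T and NK markers lay between 6.59 and 15.1 FPKM and the neutrophil markers between 2.26 and 12.85. The 5 markers of plasmacytoid dendritic cells summed to 35.8 FPKM in HS 3, against 3.40 and 3.61 in its group, to 29.3 in HS_AOS_FMT 2 and to 0.92 to 14.0 in the others, with 9.13 in control 3 and 1.06 in AOS 3. Most of the sum was Ly6d, which other cells also express, at 33.5 FPKM in HS 3 and 27.5 in HS_AOS_FMT 2, while the more specific Siglech was at 0.18 and 0.23 there and at 0.51 or less in all 18; both were named after their values were seen. In whole kidney, more cells of a type and more RNA per cell cannot be told apart.

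Among the transcription factors, Irf7 and Irf1 marked different libraries, and both were chosen for description after their values were seen, as were Isg15, Ifi27, Ifit3, Bst2, Tap1 and Parp14 below. Irf7 was at 7.26, 4.27 and 34.7 FPKM in control, at 5.08, 5.90 and 96.6 in AOS, and at 11.1, 6.33 and 29.5 in HS. It was at 8.46, 4.77 and 11.0 in HS_AOS, at 5.52, 6.92 and 5.35 in HS_AOS_FMT, and at 6.48, 11.4 and 4.53 in HS_control_FMT. The third kidney of each of the first 3 groups thus stood above the rest, with AOS 3 highest, and the values of the groups overlapped. Irf1, which is induced strongly by interferon gamma, was instead highest in HS_control_FMT 2, at 16.9 FPKM against 5.74 and 4.37 in its group. In AOS 3 it was at 5.01 FPKM, between the 6.74 and 4.25 of AOS 1 and AOS 2. Irf9 and Stat2, which encode parts of the ISRE-binding complex, ranged from 4.78 to 16.1 and from 3.45 to 9.19 FPKM and were both highest in AOS 3.

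The sensors of foreign nucleic acid were low to moderate in level. Ddx58 (RIG-I) ranged from 3.74 FPKM in control 1 to 11.3 in control 3, Ifih1 (MDA5) from 1.07 to 4.90, Dhx58 (LGP2) from 0.44 to 2.54 and Zbp1, a sensor of Z-form nucleic acid, from 0.49 to 5.39. Eif2ak2 encodes PKR, which halts translation on double-stranded RNA. Its level was 4.55, 3.80 and 7.46 FPKM in control, 4.04, 4.09 and 7.51 in AOS, 5.0, 3.87 and 5.22 in HS and 4.84, 5.82 and 7.74 in HS_AOS. In HS_AOS_FMT it was 5.06, 5.05 and 4.75 FPKM, and in HS_control_FMT 3.47, 3.70 and 2.54. The 3 kidneys of HS_control_FMT were thus below all other 15, but no difference passed (log2 difference between HS_AOS_FMT and HS_control_FMT 0.50 ± 0.23 SE, limma adjusted p = 0.233).

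The Oas family, some of whose products activate RNase L, followed AOS 3 and control 3. Oas1a ranged from 1.36 to 10.6 FPKM, Oas1g from 0.20 to 2.14, Oas2 from 0.76 to 3.58 and Oasl1 from 0.56 to 6.25, and these 4 were highest in AOS 3. Oasl2 ranged from 2.21 to 12.4 FPKM and was highest in control 3, as were 33.9% of all tested genes. Reads of the close copies Oas1a and Oas1g may have been split between them, which leaves their single values uncertain. The family's 5 tested genes had a median deviation of 0.96 in control 3, 0.95 in AOS 3 and -0.63 in HS_control_FMT 3.

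The Ifit genes, whose products bind viral RNA, were highest in control 3, the library with the highest value of 33.9% of all tested genes. Ifit1 ranged from 0.49 to 5.24 FPKM. Ifit3 was at 3.69, 4.91 and 38.2 FPKM in control, at 6.49, 5.14 and 19.7 in AOS, and at 9.66, 23.6 and 5.65 in HS_control_FMT. Ifit2 was at 1.60, 2.36 and 9.54 FPKM in control, 1.83, 1.54 and 3.59 in AOS, and 1.99, 2.38 and 3.04 in HS. It was at 3.00, 1.90 and 3.86 FPKM in HS_AOS, 1.8, 3.53 and 2.12 in HS_AOS_FMT, and 1.65, 3.77 and 1.45 in HS_control_FMT. For both genes control 3 alone held the top value, and the rest of the groups overlapped. The log2 difference of Ifit2 between AOS and control was -0.49 (SE 0.43, limma adjusted p = 0.711) and turned to 0.12 without control 3. Ifit3 has a near copy in the mouse genome, Ifit3b, with which it may share reads.

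Isg15, the ubiquitin-like protein that is joined to other proteins during the response, was at 3.23, 2.38 and 16.0 FPKM in control, 3.23, 2.41 and 15.8 in AOS, and 5.2, 5.36 and 13.6 in HS. It was at 4.45, 2.47 and 8.38 in HS_AOS, 2.50, 3.71 and 2.47 in HS_AOS_FMT, and 3.98, 7.57 and 2.42 in HS_control_FMT. The control and AOS groups were nearly the same in all 3 ranks, with a log2 difference of 0.00 and a 95% interval from -1.41 to 1.41. Usp18, which removes ISG15 and damps the receptor, ranged from 0.98 to 5.15 FPKM, and Herc6, a mouse ligase of ISG15, from 0.89 to 4.15 with its top in HS_control_FMT 2. Trim25, a ubiquitin ligase that activates RIG-I, was steadier. Its values were 12.6, 12.2 and 12.1 FPKM in control, 12.2, 11.5 and 15.7 in AOS, 15.2, 11.6 and 14.0 in HS, 13.3, 16.6 and 17.9 in HS_AOS, 13.7, 14.6 and 11.2 in HS_AOS_FMT, and 10.8, 13.2 and 11.0 in HS_control_FMT. HS_AOS was above control in all 3 kidneys (log2 0.34 ± 0.14 SE), with a limma adjusted p of 0.197.

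Of the other antiviral effectors Ifitm3, which blocks fusion of viruses with membranes of the cell, had the highest median level of all members over the 18 libraries (84.15 FPKM). It was at 72.4, 73.4 and 190 FPKM in control, 96.7, 60.6 and 138 in AOS, 93.0, 102 and 179 in HS, 116, 70.5 and 102 in HS_AOS, 66.4, 73.6 and 63.5 in HS_AOS_FMT, and 75.3, 115 and 45.7 in HS_control_FMT. Bst2, or tetherin, was at 14.7, 16.8 and 76.3 FPKM in control, 15.03, 11.7 and 101 in AOS, 32.2, 21.4 and 57.0 in HS, and 17.6, 57.4 and 14.9 in HS_control_FMT. Bst2 thus exceeded 50 FPKM in 1 kidney of each of these 4 groups, and it was at most 22.9 FPKM in HS_AOS and 21.6 in HS_AOS_FMT. Cmpk2, a mitochondrial nucleotide kinase, was at 2.64, 3.45 and 4.25 FPKM in control, 3.52, 2.96 and 5.51 in AOS, 5.07, 3.30 and 4.83 in HS, 3.55, 4.24 and 4.95 in HS_AOS, 3.09, 3.70 and 3.18 in HS_AOS_FMT, and 2.39, 3.92 and 2.61 in HS_control_FMT. Rsad2, or viperin, ranged from 2.01 to 6.17 FPKM and Rtp4 from 2.23 to 16.2.

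The guanylate-binding proteins were high in control 3 and HS_control_FMT 2. Gbp7 was at 2.77, 2.74 and 6.61 FPKM in control, 2.70, 2.20 and 4.48 in AOS, 2.83, 3.06 and 4.75 in HS, 3.18, 2.35 and 3.92 in HS_AOS, 1.87, 3.35 and 2.24 in HS_AOS_FMT, and 4.65, 11.0 and 2.77 in HS_control_FMT. The 11.0 FPKM of HS_control_FMT 2 was the highest value of the gene, and the 2 other kidneys of that group lay within the range of the remaining groups. Between HS_AOS_FMT and HS_control_FMT the log2 difference was -0.88 (SE 0.37, limma adjusted p = 0.197). Gbp2 ranged from 2.24 to 7.79 and Gbp3 from 1.23 to 10.6 FPKM, both highest in control 3, as were 33.9% of all tested genes. These genes belong to a family of near copies, so their reads may also have been split.

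Of the remaining genes Ifi27, which encodes a small mitochondrial protein, reached 335 FPKM in AOS 3, against 30.1 and 35.6 in AOS 1 and 2 and at most 122 in any library of another group. Tap1, the peptide transporter of antigen presentation, and Parp14, a mono-ADP-ribosyltransferase, were highest in HS_control_FMT 2, at 11.8 FPKM (3.02 and 2.21 in its group) and 7.70 FPKM (1.92 and 1.39). Xaf1, a cell death regulator, was at 3.26, 3.51 and 9.71 FPKM in control and 1.83, 3.65 and 3.51 in HS, with a log2 difference of -0.60 (SE 0.37, limma adjusted p = 0.839). In AOS it was at 2.23, 4.25 and 6.30 FPKM, in HS_AOS at 5.4, 2.93 and 2.44, in HS_AOS_FMT at 3.12, 4.61 and 3.99, and in HS_control_FMT at 3.48, 4.61 and 2.53. All these groups overlapped with each other. Trim30a, a ubiquitin ligase with the close copy Trim30d, ranged from 1.08 to 2.94 FPKM, Ifi35 from 10.1 to 21.4, Ifi44 from 3.05 to 9.83 and Parp9 from 5.18 to 13.6.

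**Figure D3:**
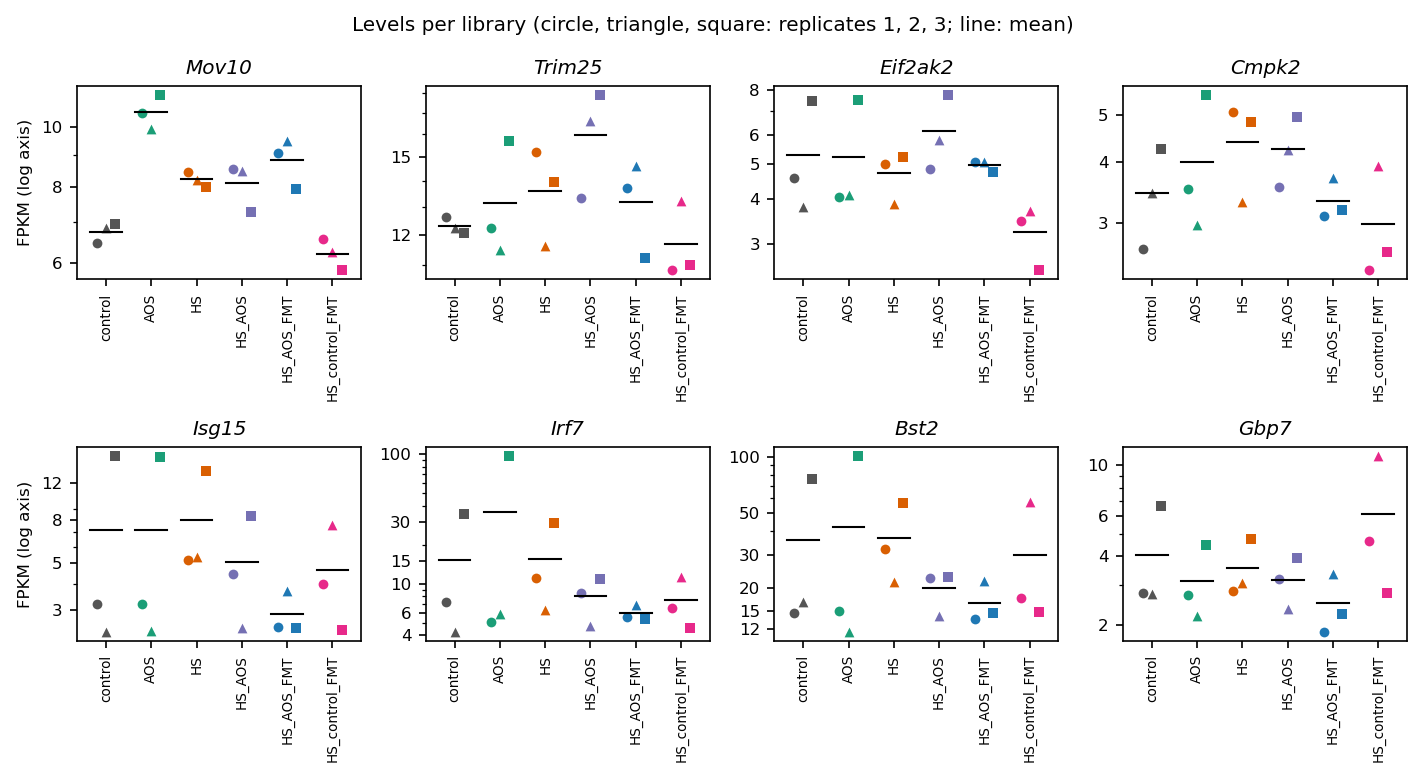
Levels in FPKM (log axis) of 8 genes in the 18 libraries, grouped on the x axis; circle, triangle and square are replicates 1, 2 and 3, and the line is the group mean. The AOS kidneys lie above all others for Mov10 (9.95 to 11.3 FPKM), while Irf7, Isg15 and Bst2 show single high kidneys in several groups.

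Mov10 was the 1 member whose level differed between groups beyond the spread of replicates. It encodes an RNA helicase that restrains retroviruses and retrotransposons. Its level was 6.48, 6.85 and 6.94 FPKM in control, 10.5, 9.95 and 11.3 in AOS, and 8.46, 8.22 and 8.0 in HS. It was 8.54, 8.48 and 7.28 FPKM in HS_AOS, 9.10, 9.51 and 7.92 in HS_AOS_FMT, and 6.56, 6.25 and 5.84 in HS_control_FMT. The AOS kidneys were above all other 15, and control and HS_control_FMT formed the low end of the order without overlapping the other 4 groups. The means were 10.6 ± 0.68 (SD, n = 3) in AOS, 8.84 ± 0.83 in HS_AOS_FMT, 8.23 ± 0.23 in HS, 8.10 ± 0.71 in HS_AOS, 6.76 ± 0.24 in control and 6.22 ± 0.36 in HS_control_FMT. In that order HS_AOS_FMT, HS and HS_AOS overlapped, as did control and HS_control_FMT.

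Over all 6 groups Mov10 passed the test for any difference (limma F test, adjusted p = 0.00391), and it was the 1 of 38 members that did, against 8.21% of all tested genes. It was also the 1 with an unadjusted p under 0.05, where 28.8% of genes had one. The call was kept when each of the 18 libraries was left out in turn, with adjusted p from 0.00201 to 0.0162. In HS_control_FMT 2, where 36 of 38 members had the highest value of their group, Mov10 was at 6.25 FPKM, between the 6.56 and 5.84 of the other two kidneys. In control 3 and AOS 3 it was the highest of its group, as most members were, but close to the others in control (6.94 FPKM, against 6.48 and 6.85).

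The question of what AOS does in an untreated kidney was addressed by AOS against control. Mov10 was higher in AOS (log2 difference 0.58 ± 0.084 SE, limma adjusted p = 0.00795), in 3 of 3 kidneys, and it was the 1 member called, where 0.0646% of tested genes were. It was also the 1 member with an unadjusted p under 0.05, against 7.28% of genes, and the 1 whose groups did not overlap, against 13.1%. Of the 38 members 20 were above 0 (52.6%, against 26.6% of all tested genes), with a median log2 difference of 0.01, against -0.09 for all genes. The difference in Mov10 was between 0.54 and 0.62 without any 1 library, but the adjusted p rose to 0.317, 0.136 and 0.181 without control 1, 2 or 3, to 0.0532 without AOS 1, to 0.0969 without AOS 3, to 0.440 without the 3 libraries richest in adrenal markers and to 0.577 with the 2 groups fitted alone. The median of the members turned with a single kidney, from -0.34 without AOS 3 to 0.36 without control 3.

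HS against control asks what the diet and STZ changed. No member passed (0 of 38, against 0.0646% of tested genes), and 1, Mov10, had an unadjusted p under 0.05, against 6.63%. Mov10 was also the 1 member whose groups did not overlap, against 8.53% of genes. The log2 difference of Mov10 was 0.25 (SE 0.084, limma adjusted p = 0.615), higher in 3 of 3 kidneys. Xaf1, described above, had the next smallest p (adjusted p = 0.839), and Cmpk2 the third, with a log2 difference of 0.28 (SE 0.20, limma adjusted p = 0.870). Over the 38 members 27 were above 0 (71.1%, against 50.5% of all tested genes), with a median of 0.11 against 0.00 for all genes. That median lay between -0.08 without control 2 and 0.47 without control 3.

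AOS given on top of HS was compared with HS alone. Of the members 0 passed, where 2.30% of tested genes did, and 0 had an unadjusted p under 0.05, where 20.3% did. The groups overlapped in all 38, whereas 24.7% of genes had groups without overlap. The smallest p belonged to Trim25 (log2 0.21 ± 0.14 SE, limma adjusted p = 0.400), Eif2ak2 (0.31 ± 0.23, 0.460) and Trim30a (0.26 ± 0.24, 0.586). Trim30a was at 1.27, 1.68 and 2.89 FPKM in control, 1.46, 1.08 and 2.68 in AOS, 1.40, 1.44 and 2.18 in HS, 2.03, 1.68 and 2.94 in HS_AOS, 1.40, 2.08 and 1.57 in HS_AOS_FMT and 1.79, 2.20 and 1.10 in HS_control_FMT, again with the third kidney of the first 4 groups at the top. The median of the members was -0.04, against 0.01 for all genes, and lay between -0.24 without HS_AOS 3 and 0.18 without HS_AOS 2. The AOS effect in HS minus that in control was -0.60 for Mov10 (SE 0.12, unadjusted p = 0.000142), which did not pass after adjustment over all genes (0.103) but did without a filter on low values (0.0138) and without HS_AOS 1 (0.0479). Of the 38 members 0 passed in this test, where 0.0727% of genes did, and Mov10 alone had an unadjusted p under 0.05, where 15% of genes had one.

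In HS_AOS_FMT against HS none of the members passed the test, but most differences had 1 sign. Of 38 members 33 were below 0, against 49.4% of all tested genes, with a median log2 difference of -0.29, against 0.00. This median kept its sign without any 1 library, from -0.45 without HS 2 to -0.08 without HS 3, the HS kidney with high levels of these genes and of adrenal markers, and it was -0.17 without the 3 libraries richest in adrenal markers. Genes of 1 library are not independent of each other, so the count of 33 does not measure how firm the difference is. The library medians of the members had a pooled within-group SD of 0.46, larger than the -0.29 in size. They also overlapped, with -0.16 in HS 2 and -0.00 in HS_AOS_FMT 2. The counts called were 0 after adjustment, where 0.977% of genes were called, and 0 at an unadjusted p under 0.05, where 18.1% were. Markers of some other cells were also mostly lower in HS_AOS_FMT, and those of others were not. Of 13 tested macrophage markers 1 was above 0 (median log2 difference -0.39), of 10 endothelial markers 0 (-0.34) and of 5 erythroid markers 0 (-1.57), whereas 5 of 8 adrenal markers (0.87) and 4 of 4 fat markers (0.63) were above 0, and none of these lists held a called gene. Of 7 T and NK markers 1 was above 0 (-0.19), of 2 neutrophil markers 0 (-0.50) and of 4 B and plasma cell markers 2 (-0.06). Of 2 plasmacytoid dendritic cell markers 1 was above 0 (0.24), and of the 12 kidney markers 7 (0.05). None of these markers was called either. The part of all these lists in the members' difference was not tested. In 10 members the groups did not overlap (26.3%, against 29.5% of all genes), 9 of them lower and Herc6 higher.

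Ifitm3 had the smallest p of that comparison, with a log2 difference of -0.81 (SE 0.41, limma adjusted p = 0.320) and all 3 HS_AOS_FMT kidneys below the 3 of HS. Ifih1 was at 3.84, 2.64 and 3.05 FPKM in HS and 1.40, 2.18 and 1.58 in HS_AOS_FMT (-0.62, SE 0.33, adjusted p = 0.342). In control Ifih1 was at 3.03, 1.52 and 3.29 FPKM, in AOS at 2.29, 1.44 and 4.90, in HS_AOS at 2.39, 1.86 and 3.35, and in HS_control_FMT at 2.18, 3.84 and 1.07. Its low values in HS_AOS_FMT thus lay within the range of the controls. Ifi44 was at 5.08, 6.44 and 9.83 FPKM in HS and 4.08, 4.63 and 3.99 in HS_AOS_FMT (-0.59, SE 0.32, adjusted p = 0.354). The other groups of Ifi44 were 3.05, 5.39 and 8.29 FPKM in control, 4.13, 3.78 and 8.34 in AOS, 6.19, 4.41 and 7.88 in HS_AOS, and 4.93, 6.06 and 3.08 in HS_control_FMT. The intervals are wide: for Isg15 the log2 difference was -1.11 with a 95% interval from -2.52 to 0.30.

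HS_control_FMT against HS gave 0 members that passed, where 0.751% of tested genes did, and 2 with an unadjusted p under 0.05 (Mov10 and Cmpk2), where 15.2% had one. The groups did not overlap in 2 members (Mov10 and Eif2ak2), against 25.3% of genes. Mov10 was below HS in all 3 HS_control_FMT kidneys (log2 difference -0.36, SE 0.084, limma adjusted p = 0.0684), and this value passed without control 3 in the fit (0.0369) and after removing the GC and length trend of each library (0.0420). For Cmpk2 the log2 difference was -0.45 (SE 0.20, adjusted p = 0.316). The median of the members was -0.26, against -0.08 for all genes, and 27 of 38 were below 0, against 65.6% of all genes.

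Between the FMT groups Mov10 passed, higher in HS_AOS_FMT in 3 of 3 kidneys (log2 0.45 ± 0.084 SE, limma adjusted p = 0.0125). It was 1 of 38 members called, where 3.99% of tested genes were called, and 3 had an unadjusted p under 0.05 (Mov10, Gbp7 and Eif2ak2), where 19.8% had one. Mov10 and Eif2ak2 were the 2 members without overlap between the groups, against 29.3% of genes. The adjusted p of Mov10 was 0.0532 without HS_AOS_FMT 1, 0.0825 without HS_AOS_FMT 2, 0.0587 without the 3 libraries richest in adrenal markers, 0.0741 after quantile normalization and 0.0731 with the 2 groups fitted alone. The median of the members was -0.16, against 0.07 for all genes, and turned to 0.16 without HS_control_FMT 2.

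Against untreated control the log2 difference of Mov10 was 0.23 in HS_AOS (SE 0.084, limma adjusted p = 0.161), 0.34 in HS_AOS_FMT (0.0739) and -0.10 in HS_control_FMT (0.527). The value of HS_AOS_FMT passed without a filter on low values (0.0330) and with the GC and length trend removed (0.0495). None of the 38 members passed in these 3 comparisons, where 2.87%, 0.460% and 3.27% of tested genes did. At an unadjusted p under 0.05 the counts were 2, 1 and 1, against 18.3%, 15.4% and 19.1% of genes. The groups did not overlap in 2, 1 and 1 members, against 15.2%, 17.9% and 18.6% of genes. The medians of the members were 0.07, -0.26 and -0.13. Without control 3 they were 0.38, 0.12 and 0.24. All comparisons with control share the same 3 kidneys, and all those with HS share another 3.

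**Figure D4:**
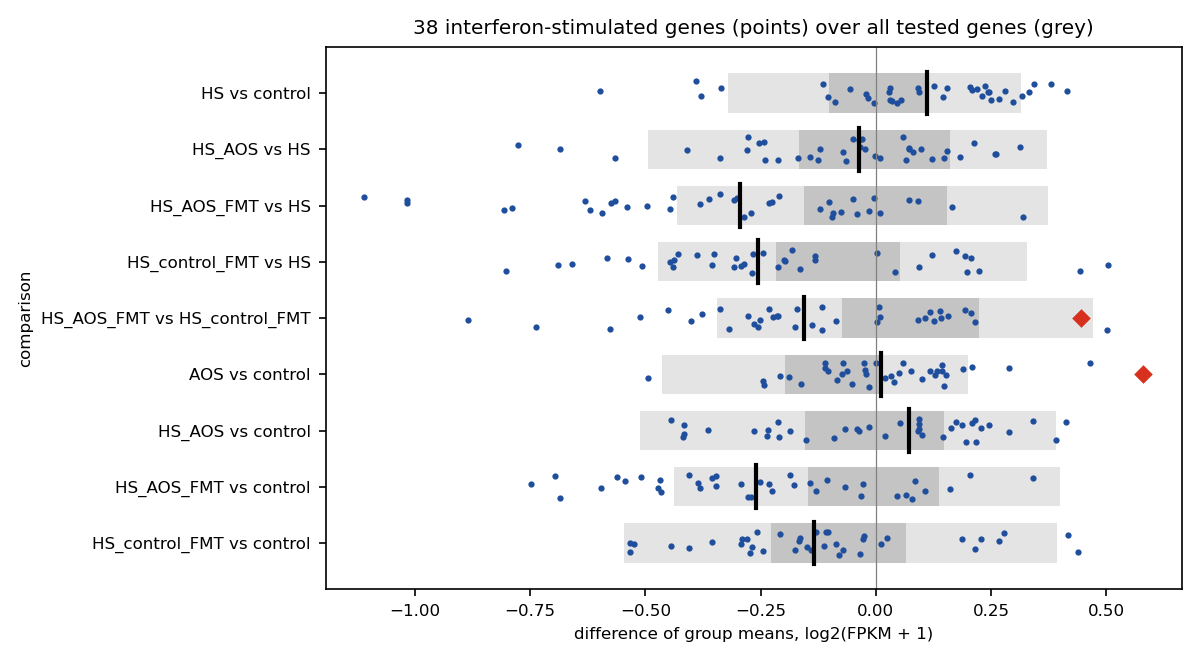
Log2 difference of group means (x axis) in 9 comparisons (y axis). Points are the 38 members, black lines their median, dark and light grey bars the middle 50% and 90% of all 12385 tested genes, and red diamonds the members that passed, which are Mov10 in AOS against control (0.58) and in HS_AOS_FMT against HS_control_FMT (0.45).

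The interferons themselves were barely detected. Of 21 listed interferon genes 8 had a row and 0 passed the filter. Ifng, the gene of interferon gamma, was at 0.34 FPKM or less, with its highest value in HS_control_FMT 2, and Ifnb1 was at 0.13 FPKM in HS 2 and listed at 0 in the other 17 libraries. The 6 receptor genes were expressed in all kidneys, with a summed level between 81.3 and 127 FPKM and 0 of 6 called in any comparison. Of 8 tested genes of JAK-STAT signalling and its feedback 1, Pias1, passed the F test (limma adjusted p = 0.0465), where 8.21% of all tested genes did, a call that ended in 16 of 18 fits without 1 library, with p up to 0.105 without HS_AOS 2. Pias1, an inhibitor of cytokine signalling, was at 9.83, 9.94 and 10.1 FPKM in HS_AOS and at 7.73, 7.25 and 6.26 in HS_control_FMT.

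Of 12 tested genes of upstream sensing 1 passed the F test, a share close to the 8.21% of all tested genes. It was Ticam1, also the 1 called in HS_control_FMT against control (3.27% of all genes) and between the FMT groups (3.99%). Ticam1, which encodes the TRIF adaptor of Toll-like receptors, was at 14.5, 13.2 and 13.3 FPKM in HS_control_FMT, above the 9.41 to 11.97 FPKM of the other 15 kidneys. It was higher there than in control (log2 0.37 ± 0.083 SE, limma adjusted p = 0.0263) and lower in HS_AOS_FMT than in HS_control_FMT (-0.37, adjusted p = 0.0279). The calls against control and between the FMT groups both ended without any 1 of the 3 HS_control_FMT kidneys, the first also without control 1 or control 3 and the second without HS_AOS_FMT 2 or HS_AOS_FMT 3. The adjusted p then reached 0.105 (without HS_control_FMT 1) and 0.125 (without HS_AOS_FMT 2), and it was 0.295 and 0.0838 with the 2 groups fitted alone. Of the 51 tested genes on a longer list of further interferon-stimulated genes, 0 passed in any comparison.

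HS_control_FMT 2 stood apart in genes known to be induced by interferon gamma. All 14 tested GTPases of that list summed to 479 FPKM there, against 70.7 and 69.0 in its group and at most 150 (AOS 3) elsewhere, and 11 of the 14 had their highest value of all 18 libraries in it, where 5.78% of all tested genes did. Tgtp1 was at 70.5 FPKM, against 3.64 and 6.47 in its group, Igtp at 93.2, against 13.5 and 13.3, and Iigp1 at 40.1, against 2.69 and 4.07. These 3 GTPases act on the vacuoles of intracellular parasites. Cxcl10, a chemokine that attracts T cells, was at 110 FPKM, against 14.0 and 11.6 in its group and at most 17.1 in the other 15 libraries. These genes, and those of the next sentences, were named after their values were seen.

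Antigen presentation genes were high in the same kidney and in control 3. Of the 18 genes of class I presentation and the immunoproteasome 15 were highest in HS_control_FMT 2 (83.3%, against 5.78% of all tested genes). The 18 genes summed to 3105 FPKM there, against 1381 and 1411 in its group. In control 3 they summed to 2541 FPKM, against 1343 and 1227 in control 1 and 2, and elsewhere to at most 1846. The immunoproteasome subunit Psmb8 was at 50.7 FPKM, against 7.75 and 7.55, and B2m, the light chain of class I molecules, at 1489, against 730 and 742. In AOS 3, the library with the most Irf7 and Ifi27, Psmb8 was at 9.73 FPKM, between the 10.6 and 5.71 of AOS 1 and 2. Cxcl10 was at 8.05 FPKM in AOS 3. Of the 18 genes 0 had their highest value in AOS 3, where 1.5% of all tested genes did, so the count of 0 does not set it apart.

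Among the 38 members the 5 with their highest value in HS_control_FMT 2 (13.2%, against 5.78% of all tested genes) were Irf1, Tap1, Parp14, Herc6 and Gbp7. By contrast, 16 had it in AOS 3, where 1.5% of all tested genes did. Control 3 held it for 11 members (28.9%, below the 33.9% of all genes). HS 3 held it for 3 (7.89%, against 4.39% of all genes) and HS_AOS 3 for 3 (7.89%, below the 12.5% of all genes). The remaining 13 libraries held the highest value of 0 members, and of 1.15% to 7.07% of all genes each. None of the lists of GTPases, chemokines or class I genes held a member that passed a test between groups.

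**Figure D5:**
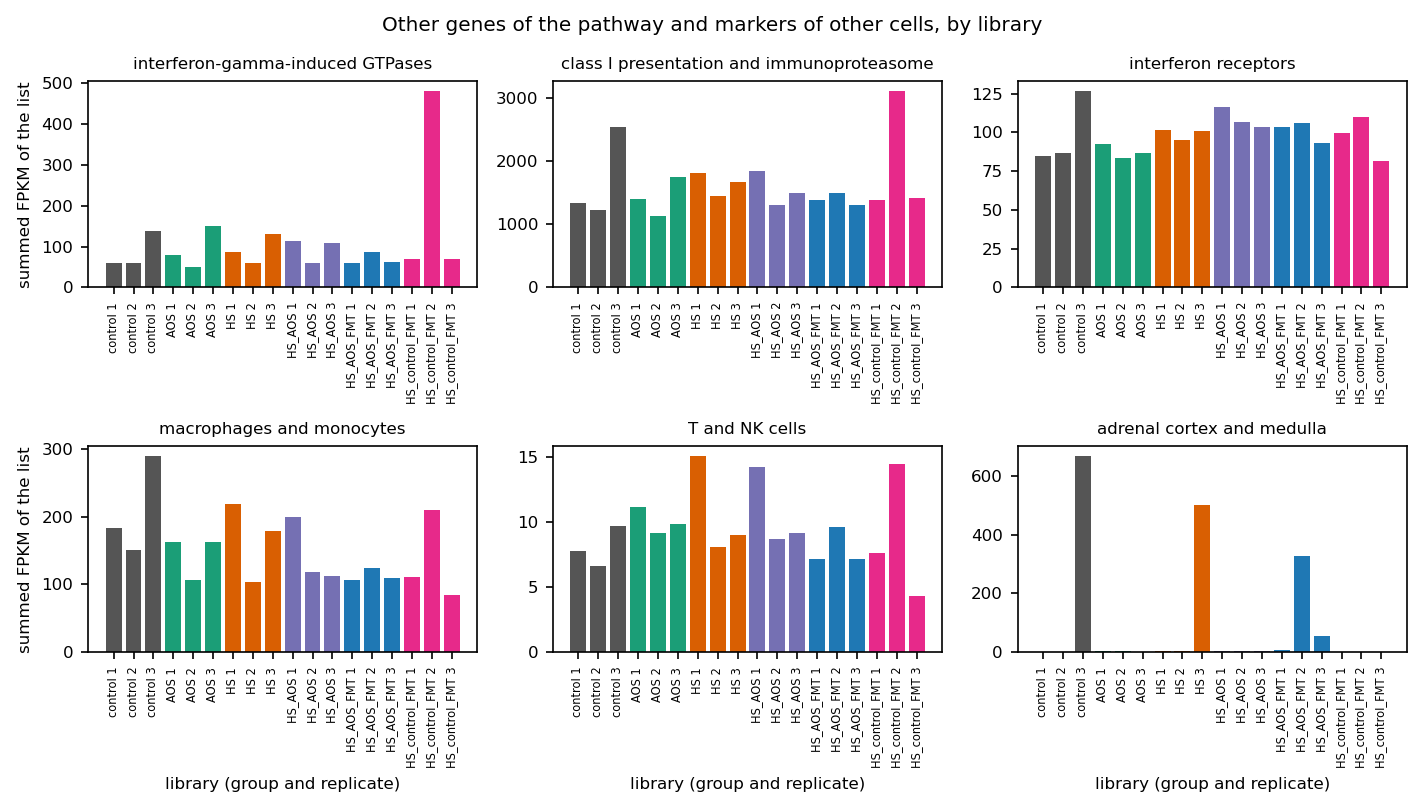
Summed FPKM of 6 gene lists (y axis, one scale for each panel, from 0) in the 18 libraries (x axis, coloured by group). The GTPases and the class I genes peak in HS_control_FMT 2 (479 and 3105 FPKM), the adrenal markers in control 3 (666 FPKM), and the receptors stay between 81.3 and 127 FPKM.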

How the data were processed

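Kidney RNA of 18 samples was sequenced, with Bowtie 0.12.2 and build mm10 named per the submitters' processing notes. The authors deposited 1 value per gene symbol in FPKM, rounded to 2 decimals. The unit, FPKM, was read from the values, and for the quantification program, annotation and strandedness nothing was given in the sources used here. Counts were not used and read depth is unknown; between 15773 and 17270 genes were above 0 per library. A count test had been planned for a table of counts, so limma 3.58.1 (R 4.3.3, trend and robust options) was used on log2(FPKM + 1), with 1 mean per group over all 18 samples which leaves 12 residual degrees of freedom. The Benjamini-Hochberg adjustment ran over the 12385 tested genes, with a threshold of 0.05. The fit was tested on simulated data. These had independent noise, a cap on the spread of each gene and no shifts of whole libraries, unlike the members described here.

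The members and gene lists were chosen with earlier results of these data known. Values in every sample are given for members that passed, for the 5 with the smallest p of the F test and for the 3 with the smallest p in each of the first 6 comparisons; genes outside that rule are marked. Over all tested genes, samples of HS and control with the same number deviated together (correlations 0.188, 0.243 and 0.121). In every other comparison at least 1 of the 3 correlations was below 0.1, as in HS_AOS_FMT against HS (0.312, -0.198 and 0.110). For the members alone, library 3 had the highest median of its group in control, AOS, HS and HS_AOS (0.81, 0.62, 0.56 and 0.36). No other source for a pairing is given.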

Additional observations from a re-analysis of the deposited data

How the results depend on the processing

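In all comparisons but HS_AOS_FMT against HS the median of the members changed sign when 1 library was left out. The medians without 1 library ranged from -0.08 to 0.47 in HS against control, -0.24 to 0.18 in HS_AOS against HS, -0.45 to -0.08 in HS_AOS_FMT against HS, -0.45 to 0.02 in HS_control_FMT against HS, -0.44 to 0.16 between the FMT groups, -0.34 to 0.36 in AOS against control, -0.14 to 0.38, -0.47 to 0.12 and -0.35 to 0.24 in HS_AOS, HS_AOS_FMT and HS_control_FMT against control, and -0.43 to 0.31 for the difference of the AOS effects. Without the 3 adrenal-rich libraries (control 3, HS 3 and HS_AOS_FMT 2) the median was 0.35 in AOS against control, 0.19 in HS_AOS against HS and 0.04 and 0.25 in HS_AOS_FMT and HS_control_FMT against control.

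The count of members called went from 1 to 0 in AOS against control with only the 2 groups fitted and without the 3 adrenal-rich libraries. Between the FMT groups it went from 1 to 0 under these and under quantile normalization. It went from 0 to 1 in HS_control_FMT against HS and in HS_AOS_FMT against control with the GC and length trend removed, and in the latter and in the difference of the AOS effects without a filter. Without 1 library it ranged from 0 to 1 in AOS against control, between the FMT groups, in HS_control_FMT against HS and in the difference of the AOS effects. The log2 difference in AOS against control turned for Ifit2 to 0.118 without control 3 and without the 3 adrenal-rich libraries, and for Cmpk2 to -0.0558 without AOS 3; without 1 library they ranged from -0.892 to 0.118 and from -0.0558 to 0.303, and neither passed in any fit. The log2 difference of Mov10, which did not pass there, turned to 0.0124 in HS_control_FMT against control under quantile normalization, and in HS_AOS against HS to 0.0302 with the GC and length trend removed and to 0.0439 without HS_AOS 3, in a range from -0.0583 to 0.0439 without 1 library. With the replicate number as a block 0 members were called in HS against control, the median stayed at 0.111, and no count of members changed in any comparison. The F test of Pias1 then no longer passed (adjusted p = 0.0873). Over all genes the counts called ranged from 0 to 238 in AOS against control and from 65 to 1143 between the FMT groups. Depth is unknown and the groups hold 3 samples each, so differences of the size of the spread between samples were not detectable.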
